A study of Homo sapiens with 6 samples.

Results

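The miR-99/100 and miR-125 families were followed in small RNA libraries of K562, an erythroleukaemia line of human origin, grown in a form sensitive and a form resistant to azacitidine. The members were taken by name from the deposited count table: the 10 listed arms of the hairpins in 3 clusters, out of 2656 mature miRNAs. Of these 10, 8 had enough counts to be tested. The sensitive form (3 libraries) and the resistant form (3 libraries) grew in the same medium, and the resistant form came from months of growth in rising concentrations of azacitidine, a cytidine analogue that lowers DNA methylation. The labels give no dose and no other allele or agent, and do not say whether the drug was present at harvest. Every library name, sensitive or resistant, carries the tag NT, whose meaning is not spelled out there. The sample titles call the replicates biological. Neither separate cultures nor separate selections are named behind the replicates, so p-values measure the spread between libraries. In these bulk libraries, a loss in every cell and a loss in part of the cells cannot be told apart.

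A miRNA hairpin yields a 5p and a 3p arm, and the arm loaded into Argonaute pairs with target transcripts mainly through its seed, the bases near its 5′ end. The vertebrate genome carries paralogous clusters in which a miR-99/100 hairpin, a let-7 hairpin and a miR-125 hairpin lie in a row. miR-99 and miR-100 repress MTOR and IGF1R. miR-125 represses BAK1 and LIN28A transcripts, is abundant in blood stem and progenitor cells, and drives leukaemia in mice when overexpressed. The chromosome 21 cluster has been linked to megakaryoblastic leukaemia.

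The mature sequences from RefSeq (GRCh38.p14), found for all 10 members, are shown because their seeds and near-identities decide which members can be told apart and which share targets. Capitals mark the seed, bases 2 to 8 from the 5′ end.
hsa-miR-99a-5p: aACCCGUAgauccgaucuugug
hsa-miR-100-5p: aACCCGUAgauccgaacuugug
hsa-miR-99b-5p: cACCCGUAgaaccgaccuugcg
hsa-miR-125b-5p: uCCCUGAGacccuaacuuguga
hsa-miR-125a-5p: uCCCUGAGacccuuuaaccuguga
hsa-miR-99a-3p: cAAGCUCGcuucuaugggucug
hsa-miR-99b-3p: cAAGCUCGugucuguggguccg
hsa-miR-125b-2-3p: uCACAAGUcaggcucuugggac
hsa-miR-125b-1-3p: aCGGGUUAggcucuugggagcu
hsa-miR-125a-3p: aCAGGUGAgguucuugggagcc

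The 5p arms of miR-99a, miR-99b and miR-100 share the seed ACCCGUA, and no other miRNA of the count table with a RefSeq sequence has it. Those of miR-125a and miR-125b share CCCUGAG with hsa-miR-4319, which had 0 counts over the 6 libraries. miR-99a-5p and miR-100-5p differ by 1 base, U16A (miR-99a-5p first, counted from the 5′ end). miR-99b-5p differs from miR-99a-5p at 4 positions, A1C, U11A, U16C and U21C. miR-125a-5p (24 bases) and miR-125b-5p (22 bases) are identical over their first 13 bases. The passenger arms separate the hairpins: the seeds of miR-125b-2-3p and miR-125b-1-3p each occur in no other miRNA of the table with a RefSeq sequence, while both hairpins make the same miR-125b-5p.

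The hairpins lie in introns of their host genes in every GENCODE release 29 transcript that spans them (GRCh38). On chromosome 19 only 1 of 14 host transcripts spans them. On chromosome 21, 13 or 14 of 21 do, and on chromosome 11, 8 to 23 of 39, depending on the hairpin. On the plus strand of chromosome 21, MIR99A (16539089 to 16539169), MIRLET7C (16539828 to 16539911) and MIR125B2 (16590237 to 16590325) lie in MIR99AHG, a long non-coding RNA gene. On the minus strand of chromosome 11, MIR100 (122152229 to 122152308), MIRLET7A2 (122146522 to 122146593) and MIR125B1 (122099757 to 122099844) lie in MIR100HG, also a non-coding gene. On the plus strand of chromosome 19, MIR99B (51692612 to 51692681), MIRLET7E (51692786 to 51692864) and MIR125A (51693254 to 51693339) lie in SPACA6, which codes for a sperm protein; the antisense gene SPACA6P-AS overlaps them. The first and last hairpin start 51.1 kb apart on chromosome 21, and 0.642 kb apart on chromosome 19. On chromosome 11, in the direction of transcription, the distance is 52.5 kb.

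**Figure D1:**
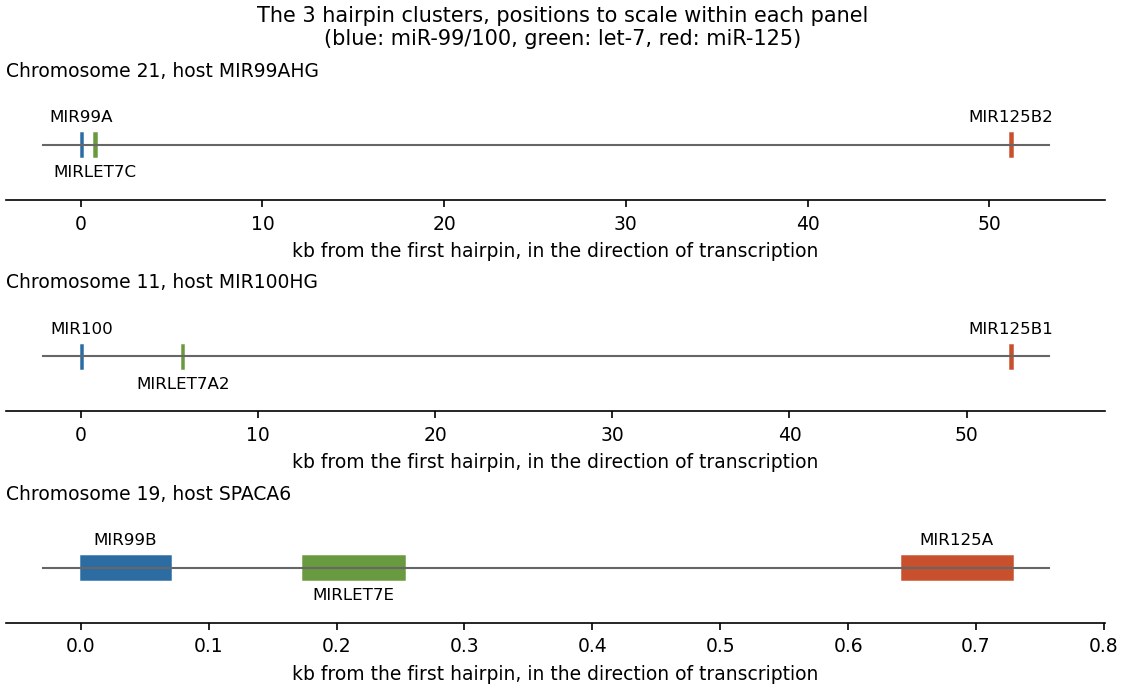
Hairpins of the 3 clusters, drawn by distance in kb from the first hairpin in the direction of transcription, each panel on its own scale; box outlines widen the boxes on chromosomes 21 and 11. Blue boxes are miR-99/100, green boxes let-7 and red boxes miR-125 hairpins, and the chromosome 19 cluster is the compact one, with its last hairpin starting 0.642 kb from the first.

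Library totals ran from 3291500 counts (resistant replicate 3) to 12563945 counts (sensitive replicate 1). Resistant replicate 3 stood apart from the other libraries. Its log2 CPM values (CPM, a count divided by the library's size after adjustment with TMM factors, trimmed means of M values) correlated at 0.887 and 0.875 with the other resistant libraries, which correlated with each other at 0.996, and miR-92a-3p held 58.6% of its counts against 10.5% to 20.2% elsewhere. The 12 fragment-like annotations in the table, a sign of RNA quality, made up 4.95% of its counts and 1.00% to 1.69% of the others. Most of these counts in resistant replicate 3 were of miR-1260a and miR-1260b (72968 and 77296). miR-1246, at 3788 CPM there, lay within the sensitive range of 921 to 5599 CPM. Results below are therefore given library by library or also without resistant replicate 3. The 4 myeloid markers made up 1.15% to 1.29% of counts in sensitive libraries and 0.113% to 1.35% in resistant ones, and the 5 erythroid markers 0.528% to 0.707% and 1.35% to 5.04%. By edgeR with all libraries, 3 of the 5 erythroid markers had negative and 2 positive log2 fold changes (resistant over sensitive). These were -0.94 for miR-451a, -0.41 for miR-144-3p and -0.0016 for miR-144-5p, against 2.34 for miR-486-5p and 1.70 for miR-486-3p. Without resistant replicate 3, miR-451a stayed negative (-0.49), and miR-144-3p (0.093) and miR-144-5p (0.43) were positive. All 4 myeloid markers were negative with all libraries, at -1.52 for miR-223-3p, -0.54 for miR-223-5p, -0.75 for miR-142-3p and -0.77 for miR-142-5p. Without resistant replicate 3 these were -0.99, -0.099, -0.17 and -0.32. Of the 9, 0 were called with all libraries by edgeR (2 were higher and 0 lower at an unadjusted p under 0.05, and the same numbers with DESeq2); without resistant replicate 3, both arms of miR-486 were higher and miR-223-3p was lower. Of the 8 markers of other tissues, miR-208b-3p had 0 counts, and miR-375-3p was the most abundant at 83.4 ± 28.8 and 70.4 ± 21.6 CPM (± SD, 3 libraries each). Their part in the results on the members was not tested.

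By the edgeR quasi-likelihood test with Benjamini-Hochberg adjustment over 768 miRNAs, 2 of the 8 tested members were lower in resistant cells, namely the 5p arms of miR-99a and miR-125b, and 0 were higher. At an unadjusted p under 0.05, and with DESeq2, 4 were lower and 0 higher. Among all miRNAs, the unadjusted p gave 10% lower and 16.7% higher, and DESeq2 gave 6.8% lower and 13.1% higher. Over all tested miRNAs with adjustment in edgeR, 16 were lower (2.08%) and 16 higher (2.08%); scaled by library totals alone the split was 16 lower and 27 higher, with the same 2 members lower. Without resistant replicate 3, 4 of the 8 were lower and 0 higher, against 14.4% lower and 13.7% higher among 822 tested miRNAs. These 4 were miR-99a-5p, miR-125b-2-3p, miR-125b-5p and miR-100-5p, all made on chromosomes 21 or 11. Of the 4 tested chromosome 19 arms, 0 passed in either edgeR fit, 0 had an unadjusted p under 0.05 and 0 passed with DESeq2. For 4 members every resistant CPM was below every sensitive one, which held for 22.9% of all tested miRNAs. The median log2 fold change was -1.05 over the 8 tested members and -0.11 over all tested miRNAs. With library totals in place of TMM factors the latter was 0.087. The median of the members describes no single member, because it falls in a gap between 4 negative and 4 positive values. The positive ones were the chromosome 19 arms. Among all 768 tested miRNAs, 413 had a negative value.

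**Figure D2:**
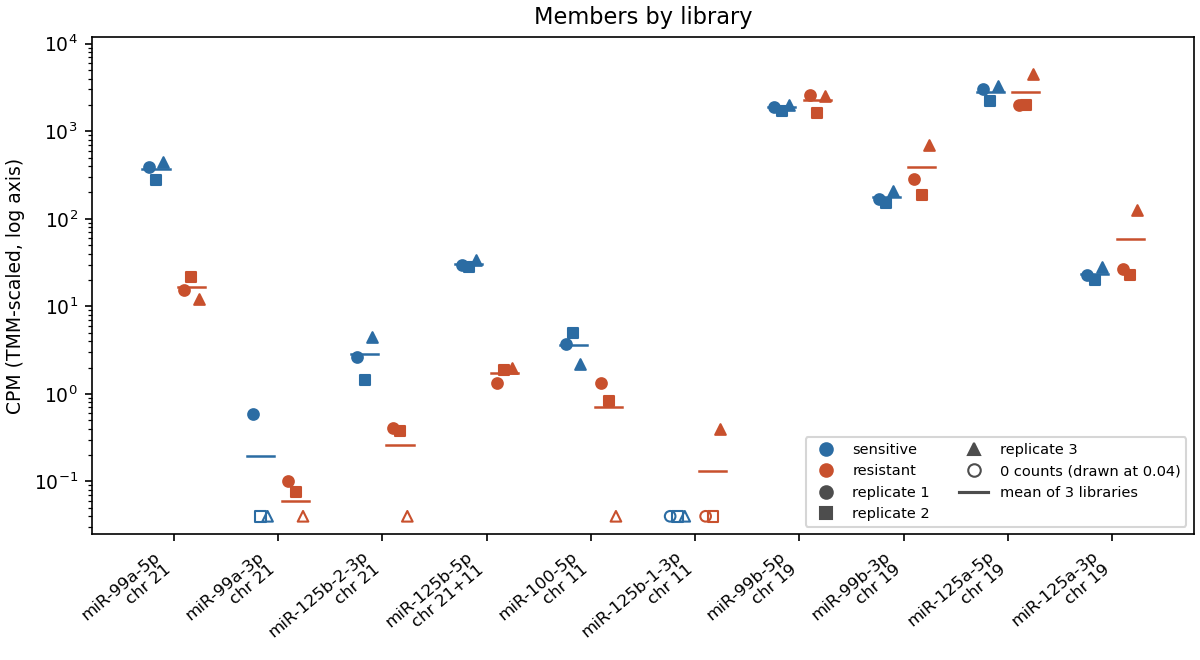
CPM (log axis) of the 10 members in each library, with replicates as symbols, sensitive libraries in blue, resistant libraries in red, open symbols at 0.04 for 0 counts and a bar at each group's mean. The resistant points lie below all sensitive points for miR-99a-5p, miR-125b-2-3p, miR-125b-5p and miR-100-5p, while the groups overlap for the 4 arms made on chromosome 19.

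miR-99a-5p, the abundant guide arm of the chromosome 21 cluster, was the member with the largest fall. It stood at 394, 278 and 440 CPM in sensitive replicates 1 to 3 (4730, 2718 and 2376 counts). In resistant replicates 1 to 3 it stood at 15.6, 21.7 and 12.2 CPM (153, 288 and 31 counts). The lowest sensitive library was far above the highest resistant library. The fall was 22.3-fold (370 ± 83.5 to 16.5 ± 4.84 CPM, ± SD of 3 libraries; log2 fold change -4.48, SE 0.47; adjusted p = 0.00219 with edgeR). Without resistant replicate 3 it was 19.1-fold (adjusted p = 2.12e-06 with edgeR). Ordered by p-value from the lowest, it was at rank 4 of the 768 tested miRNAs.

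miR-99a-3p, the passenger arm of the same hairpin, was at the limit of detection. It had 7, 0 and 0 counts in sensitive replicates 1 to 3 and 1, 1 and 0 counts in resistant replicates 1 to 3, and was not tested. Its share of the hairpin's reads was 0.148% in sensitive replicate 1 (exact 95% interval 0.0594% to 0.304%). In sensitive replicate 2, 0 of 2718 reads allows a share of up to 0.136% by the exact 95% interval. These intervals cover counting error only. At this depth no change in the arm could be seen. With fewer reads from the hairpin in resistant cells the limit was looser there, up to 11.2% for 0 of 31 reads in resistant replicate 3.

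miR-125b-2-3p, the passenger arm that comes only from the chromosome 21 hairpin, had few counts but separated the groups. Sensitive replicates 1 to 3 held 32, 14 and 24 counts (2.66, 1.43 and 4.44 CPM). Resistant replicates 1 to 3 held 4, 5 and 0 counts (0.407, 0.377 and 0 CPM). A floor of 3 counts corresponds to 1.18 CPM in resistant replicate 3, close under the lowest sensitive value. The log2 fold change was -3.02 (SE 0.72; adjusted p = 0.0569 with edgeR) and missed the threshold. It passed without resistant replicate 3 (log2 fold change -2.70, adjusted p = 0.00657 with edgeR) and with DESeq2 (adjusted p = 0.00385 with that tool).

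miR-125b-5p, made by hairpins on chromosomes 21 and 11, was the other member that fell with all 6 libraries. Its values were 29.5, 27.9 and 33.5 CPM in sensitive replicates 1 to 3, from 354, 273 and 181 counts. In resistant replicates 1 to 3 they were 1.32, 1.89 and 1.96 CPM, from 13, 25 and 5 counts. A wide gap lay between the groups, but the resistant values rest on few counts. In resistant replicate 3 the floor of 3 counts lies at 1.18 CPM. The fall was 17.7-fold (30.3 ± 2.89 to 1.72 ± 0.350 CPM, ± SD of 3 libraries; log2 fold change -4.14, SE 0.44; adjusted p = 0.00219 with edgeR). Leaving out resistant replicate 3 gave 17.8-fold (adjusted p = 3.31e-06 with edgeR).

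The reads of the passenger arms bear on which hairpin was the source. In sensitive cells the arm of the chromosome 21 hairpin, miR-125b-2-3p, had 70 counts in total, and that of the chromosome 11 hairpin, miR-125b-1-3p, had 0. In resistant cells the totals were 9 and 1, the latter from resistant replicate 3. A low count of a passenger arm also depends on how stable that arm is, which was not tested, so the share of miR-125b-5p from each hairpin cannot be told apart from its own reads.

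miR-100-5p, the guide arm of the chromosome 11 cluster, was scarce in both forms. It stood at 3.75, 5.00 and 2.22 CPM in sensitive replicates 1 to 3 (45, 49 and 12 counts), and at 1.32, 0.83 and 0 CPM in resistant replicates 1 to 3 (13, 11 and 0 counts). All resistant libraries were below all sensitive ones, with the floor of 3 counts in resistant replicate 3 at 1.18 CPM. Its log2 fold change was -2.10 (SE 0.71; adjusted p = 0.134 with edgeR), and without resistant replicate 3 it passed at -1.76 (adjusted p = 0.0125 with edgeR). With DESeq2 it also passed (log2 fold change -2.07, adjusted p = 0.0247 with that tool).

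Because U16A alone separates miR-100-5p from miR-99a-5p, their reads were set side by side. miR-100-5p made up 0.942%, 1.77% and 0.503% of the reads of both in the sensitive libraries (by exact 95% limits, 0.688% to 1.26%, 1.31% to 2.33% and 0.26% to 0.876%). It made up 7.83% and 3.68% in resistant replicates 1 and 2 (by exact 95% limits, 4.24% to 13.02% and 1.85% to 6.49%). The share was thus higher in both of these libraries than in any sensitive library. In resistant replicate 3, 0 of 31 reads allows up to 11.2% by the exact 95% limit. Whether some miR-100-5p reads are misread miR-99a-5p was not tested. The remaining arms of the cluster gave little: miR-100-3p had 0 counts in all libraries, and let-7a-2-3p, from the hairpin between MIR100 and MIR125B1, had 1 count in all.

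The chromosome 19 cluster supplied most of both families in both forms, and none of its 4 arms was called. miR-99b-5p stood at 1914, 1702 and 2004 CPM in sensitive replicates 1 to 3 and at 2606, 1627 and 2527 CPM in resistant replicates 1 to 3. The ranges overlapped, with resistant replicate 2 the lowest of all 6. The log2 fold change was 0.27 (SE 0.37; adjusted p = 0.655 with edgeR), and 0.22 without resistant replicate 3.

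miR-125a-5p, the most abundant member, stood at 2999, 2209 and 3251 CPM in sensitive replicates 1 to 3 and at 1976, 2009 and 4475 CPM in resistant replicates 1 to 3. Resistant replicate 3 was the highest library and the other resistant libraries the lowest. The log2 fold change of 0.00028 (SE 0.45; adjusted p = 1.00 with edgeR) therefore joined unlike libraries, and without resistant replicate 3 it was -0.45 (SE 0.22; adjusted p = 0.148 with edgeR). A change of moderate size in either direction lies within these errors.

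The 3p arms of the cluster were highest in resistant replicate 3. miR-99b-3p stood at 170, 151 and 205 CPM in sensitive and at 283, 187 and 690 CPM in resistant replicates 1 to 3 (log2 fold change 1.14, SE 0.54; adjusted p = 0.212 with edgeR). miR-125a-3p stood at 22.7, 20.2 and 28.1 CPM and at 26.5, 22.6 and 127 CPM (log2 fold change 1.299, SE 0.70; adjusted p = 0.259 with edgeR). Without resistant replicate 3 the log2 fold changes were 0.47 and 0.11 (adjusted p = 0.181 and 0.811 with edgeR), so most of the difference for miR-125a-3p came from that library. These arms are GC-rich, at 63.6% and 59.1% of bases, against a median of 47.8% over tested miRNAs with a sequence. The 5p arm miR-99b-5p is as rich, at 63.6%, and miR-125a-5p stands at 50.0%. With a correction for GC content the log2 fold change was 0.27 for miR-125a-3p and -0.019 for miR-99b-3p. For miR-99b-5p it was then -0.61 and for miR-125a-5p -0.047.

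**Figure D3:**
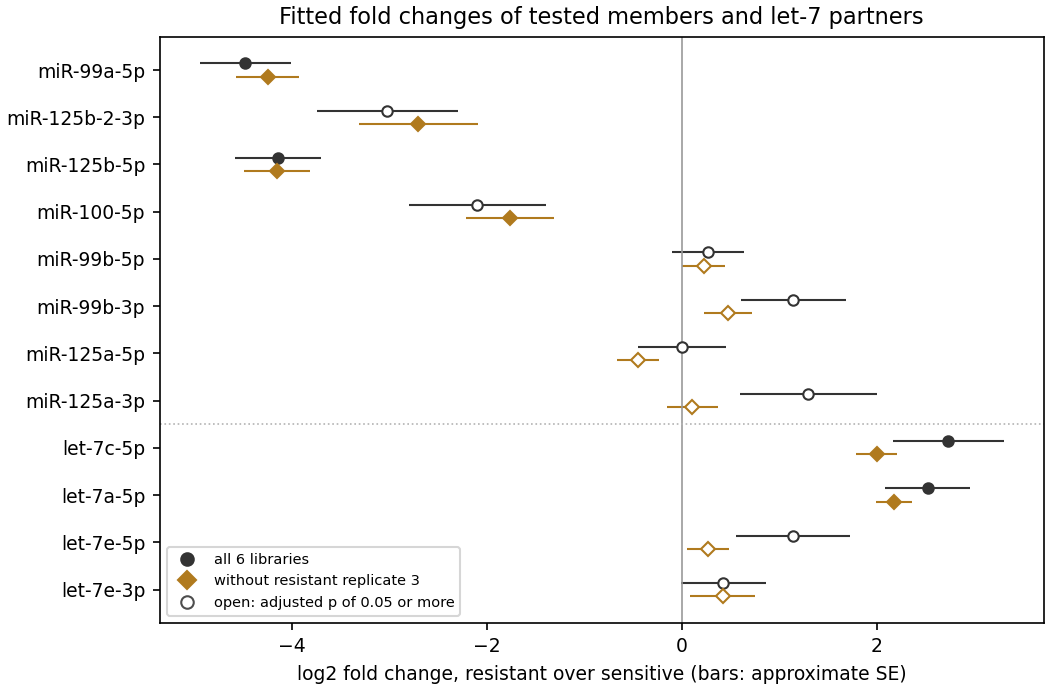
Log2 fold changes (resistant over sensitive) of the 8 tested members and 4 tested let-7 partners, with all 6 libraries (circles) and without resistant replicate 3 (diamonds); bars are approximate SEs and open symbols did not pass. The members from chromosomes 21 and 11 lie between -1.76 and -4.48 and those from chromosome 19 between -0.45 and 1.299, while let-7c-5p and let-7a-5p lie at 2.73 and 2.52 with all libraries.

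Comparing clusters by summed CPM, with miR-125b-5p kept apart, gave the same order. The 3 arms made only on chromosome 21 summed to 373 ± 85.0 CPM in the sensitive form and to 16.8 ± 5.04 CPM in the resistant form (± SD, 3 libraries each), a 22.2-fold lower mean (19.1 CPM in the resistant form without replicate 3). The 2 arms made only on chromosome 11 summed to 3.66 ± 1.39 and 0.849 ± 0.465 CPM, a 4.31-fold lower mean (1.08 CPM without resistant replicate 3). The 4 arms of chromosome 19 summed to 4892 ± 727 and 5519 ± 2059 CPM. This 1.13-fold higher mean was within the spread of the libraries, and without resistant replicate 3 the resistant mean was 4369 CPM. Chromosome 21 and 11 arms were thus minor sources in sensitive cells and smaller still in resistant cells.

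The paralogues on chromosome 19 made up most of the pool of each shared seed, and the sizes of the pools overlapped between groups. These sums were chosen after seeing the data and were not tested. The 5p arms of miR-99a, miR-99b and miR-100 summed to 2312, 1984 and 2446 CPM in sensitive and 2622, 1650 and 2540 CPM in resistant replicates 1 to 3. Resistant libraries thus held both the highest and the lowest of the 6 sums. miR-99a-5p was 17.0%, 13.99% and 18.0% of this pool in the sensitive libraries (by exact 95% limits, 16.6% to 17.5%, 13.5% to 14.5% and 17.3% to 18.6%). In the resistant libraries it was 0.594%, 1.32% and 0.48% (by exact 95% limits, 0.504% to 0.695%, 1.17% to 1.48% and 0.326% to 0.68%).

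For the miR-125 seed, miR-125a-5p and miR-125b-5p summed to 3028, 2237 and 3284 CPM in sensitive and 1978, 2011 and 4477 CPM in resistant replicates 1 to 3. The share of miR-125b-5p was 1.08 ± 0.146% in sensitive and 0.0682 ± 0.025% in resistant libraries (± SD, 3 libraries each). Its fall therefore touched a small part of this pool even in sensitive cells. Counts of different miRNAs carry ligation preferences of the kit, so these shares are shares of reads and not of molecules.

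**Figure D4:**
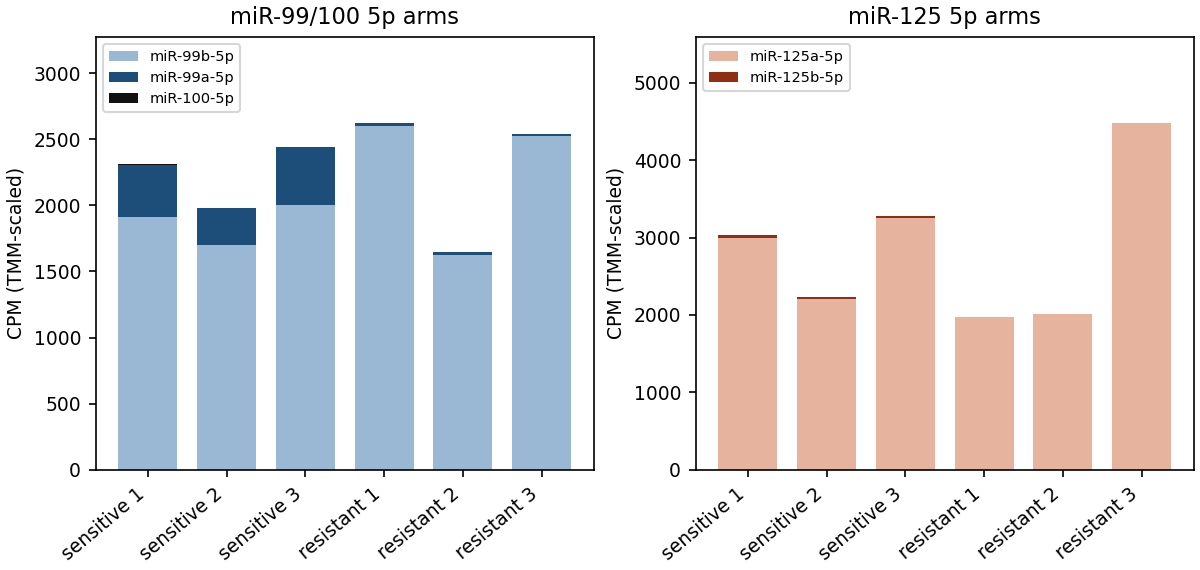
Stacked CPM (linear axis from 0) of the 5p arms that share a seed in each library, miR-99/100 at left and miR-125 at right. The dark miR-99a-5p segment is visible in the 3 sensitive libraries and nearly gone in the 3 resistant ones, while total heights overlap between groups.

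Ratios of counts within a library do not depend on how libraries are scaled, and 13 were compared by a two-sided exact permutation test, which with 3 against 3 libraries cannot give p under 0.1. The groups did not overlap for 9 ratios, each at that smallest exact permutation p of 0.1 (adjusted over the 13, p = 0.144), and the highest adjusted p of the other 4 was 0.6. The log2 ratio of miR-99a-5p to miR-99b-5p was -2.28, -2.62 and -2.19 in sensitive and -7.38, -6.22 and -7.67 in resistant replicates 1 to 3. The resistant mean was thus lower by 4.73 (by 4.44 without resistant replicate 3). For miR-125b-5p to miR-125a-5p the means were -6.52 ± 0.192 and -10.5 ± 0.494 (± SD, 3 libraries each). Against their chromosome 19 paralogues, both members were thus lower in every resistant library than in any sensitive one.

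The miR-100-5p to miR-99b-5p ratio was also lower in all resistant libraries, by 2.76 on the log2 scale (by 1.84 without resistant replicate 3, where miR-100-5p had 0 counts). The ratio of miR-99a-5p to miR-100-5p overlapped between the groups (means 6.68 ± 0.896 and 4.71 ± 1.24, ± SD of 3 libraries; exact permutation p = 0.2). The overlap came from resistant replicate 3, where miR-100-5p had 0 counts and the 0.5 counts added set the ratio. With 1 count added the groups did not overlap (difference -2.30; exact permutation p = 0.1, the smallest possible), nor did they without that library (difference -2.61; exact permutation p = 0.2, then the smallest possible). For the first against the second of the called members, miR-99a-5p to miR-125b-5p, the log2 ratio was 3.59 ± 0.238 and 3.18 ± 0.569 (± SD, 3 libraries each), and the groups overlapped (exact permutation p = 0.3). The difference was -0.41, and -0.084 without resistant replicate 3.

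Within the chromosome 19 cluster, the ratio of miR-99b-5p to miR-125a-5p overlapped between groups (log2 means -0.57 ± 0.173 and -0.24 ± 0.614, ± SD of 3 libraries; exact permutation p = 0.6). The arms were also compared: the 3p arm took 8.16%, 8.13% and 9.28% of miR-99b reads in sensitive and 9.81%, 10.3% and 21.4% in resistant replicates 1 to 3. For miR-125a it took 0.752%, 0.907% and 0.858% in sensitive and 1.32%, 1.11% and 2.76% in resistant replicates 1 to 3. All resistant shares were above all sensitive shares, with the highest in resistant replicate 3. The log2 ratio of the 5p to the 3p arm was lower by 0.70 for miR-99b and by 0.94 for miR-125a, and by 0.27 and 0.54 without that library. The ratios of miR-99a-5p to miR-99a-3p and of miR-125b-2-3p to miR-125b-1-3p also separated the groups, but rest on arms with 0 or few counts and were not read further.

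**Figure D5:**
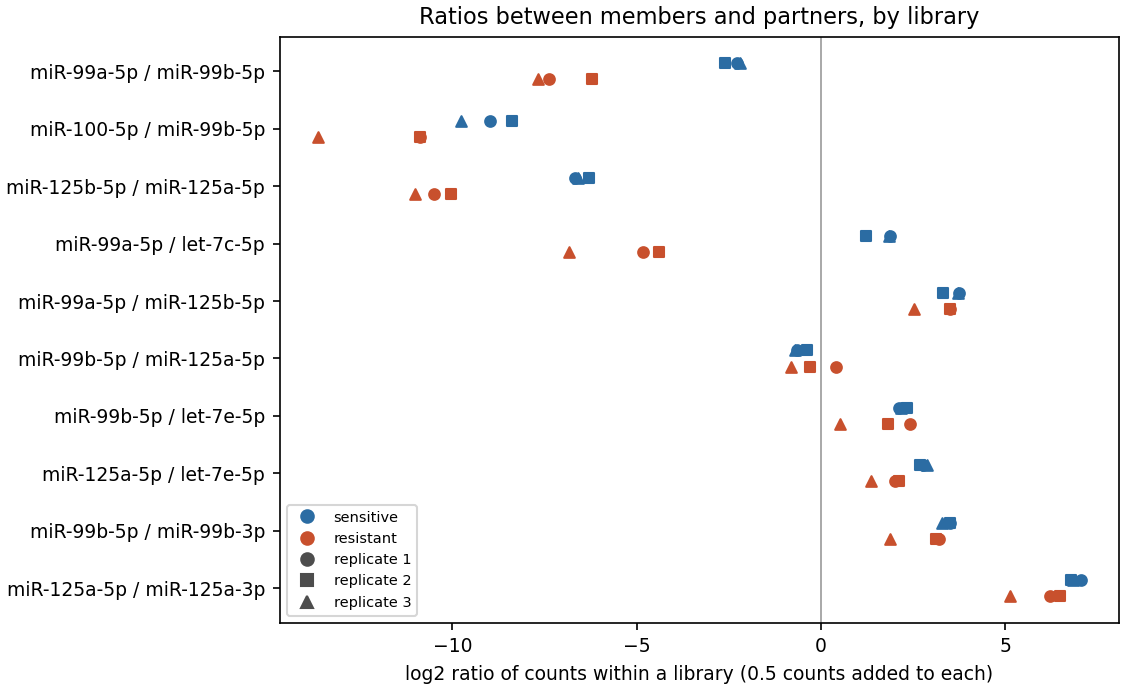
Log2 ratios of counts within each library (0.5 counts added to each count), sensitive in blue, resistant in red, replicates as symbols. The upper 4 ratios, which set a chromosome 21 or 11 guide arm (or miR-125b-5p) against another miRNA, lie apart between groups. Within chromosome 19, miR-99b-5p / miR-125a-5p and miR-99b-5p / let-7e-5p overlap. There, miR-125a-5p / let-7e-5p and the ratios of 5p to 3p arms lie apart too, by smaller differences.

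Reads counted as let-7c-5p, the let-7 guide arm of the chromosome 21 cluster, did not fall with the miR-99 and miR-125 arms. This guide arm, whose hairpin starts 0.739 kb after that of miR-99a, stood at 107, 120 and 122 CPM in sensitive and at 441, 455 and 1425 CPM in resistant replicates 1 to 3 (log2 fold change 2.73, SE 0.57; adjusted p = 0.0467 with edgeR). All resistant libraries were above all sensitive ones. It passed without resistant replicate 3 (3.999-fold higher, adjusted p = 2.36e-05 with edgeR) and missed the threshold in 8 of 14 alternatives, all with a positive fold change. The log2 ratio of miR-99a-5p to let-7c-5p went from 1.65 ± 0.379 to -5.35 ± 1.31 (SD, n = 3 each; exact permutation p = 0.1, the smallest possible), a difference of 6.997 on the log2 scale (6.25 without resistant replicate 3).

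The passenger arm let-7c-3p, which like miR-99a-3p had few reads, was too rare to test. It held 2, 1 and 6 counts in sensitive and 1, 0 and 0 counts in resistant replicates 1 to 3. The totals of 9 and 1 counts go the way of miR-99a-5p and not of let-7c-5p. let-7c-5p differs from let-7a-5p by G19A alone. let-7a-5p had 35034 counts over the sensitive libraries against 3120 for let-7c-5p, and 154263 against 13990 over the resistant libraries. The counts of let-7a-5p thus rose too (log2 fold change 2.52, SE 0.43; adjusted p = 0.0198 with edgeR). let-7a-5p missed the threshold in 6 of 14 alternatives, all with a positive fold change, among them the replicate block (adjusted p = 0.0752 with edgeR), the fits without any 1 sensitive library (0.117 to 0.162) and that without resistant replicate 1 (0.0581). How many let-7c-5p reads come from let-7a-5p was not tested, and let-7a-5p is made by further hairpins outside chromosome 11. On chromosome 19, let-7e-5p stood at 444, 341 and 447 CPM in sensitive and at 491, 466 and 1763 CPM in resistant replicates 1 to 3 (log2 fold change 1.14, SE 0.59; adjusted p = 0.238 with edgeR, and 0.27 without resistant replicate 3). let-7e-3p had a log2 fold change of 0.43 (adjusted p = 0.544 with edgeR). The log2 ratio of miR-125a-5p to let-7e-5p was lower in all 3 resistant libraries, by 0.95 (exact permutation p = 0.1, the smallest possible), and that of miR-99b-5p to let-7e-5p overlapped (exact permutation p = 0.4).

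Among 11 other miRNAs of blood stem and progenitor cells, 9 could be tested, and 1 was lower and 0 higher with all libraries by edgeR (5 lower and 1 higher at an unadjusted p under 0.05, 2 lower and 1 higher with DESeq2). The one lower by edgeR was miR-181a-5p, which tunes lymphoid signalling (log2 fold change -2.42, adjusted p = 0.0355 with edgeR). miR-221-3p, which represses KIT, came next by p-value and missed the threshold (log2 fold change -1.64, adjusted p = 0.0777 with edgeR). The median over the 9 was -1.21. Without resistant replicate 3, 5 were lower and 2 higher, the latter miR-10b-5p and miR-196b-5p of the HOX clusters, with a median of -0.82 against 0.036 over all miRNAs tested in that fit.

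The miRNAs most like miR-99a-5p over the 6 libraries, by Pearson's r of log2(CPM + 1) among 463 other tested miRNAs averaging at least 10 CPM, were miR-181a-3p (0.994), miR-145-5p (0.993) and miR-548ae-3p (0.986). For miR-125b-5p they were miR-181a-3p (0.998), miR-145-5p (0.983) and miR-625-3p (0.981). All of these were called lower in resistant cells, with log2 fold changes of -1.76 for miR-145-5p, -3.58 for miR-548ae-3p and -2.56 for miR-625-3p, and 0 counts of miR-181a-3p in all 3 resistant libraries. The 6 points form 2 groups, so any miRNA with tight groups far apart in the same direction correlates highly. For miR-99b-5p the closest were miR-3934-5p (0.804), miR-431-3p (0.79) and miR-501-3p (0.787), and 0 of these 3 was called.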

How the data were processed

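The authors deposited whole-number read counts per mature miRNA, 1 column per library. The build was GRCh38, per the submitters' processing notes. Not given in the sources used here are the aligner, counting program, miRBase release, read filters and handling of reads that match several miRNAs. RNA was isolated with TriPure, treated with DNase and made into NEBNext small RNA libraries, per the labels' protocols. No molecular identifiers are recorded, so intervals cover counting error only. Totals ranged from 3291500 to 12563945 counts.

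The members and lists were chosen with earlier results of these data known. Groups came from sample titles. miRNAs were filtered with filterByExpr (minimum count 10, minimum total 15) and compared with edgeR 4.0.16 (R 4.3.3) by quasi-likelihood F test with TMM factors, without covariates, and Benjamini-Hochberg adjustment over 768 miRNAs at 0.05. SEs are the absolute log2 fold change over the square root of F. Replicates differed beyond sampling noise (chi-square per degree of freedom at least 124). On data simulated for 725 miRNAs, the test called 45 of 45 falls and 50 of 50 rises of 4 log2 units, 33 of 42 falls and 29 of 50 rises of 2 log2 units, and 4 of 538 unchanged miRNAs. No simulated library was made to stand apart as resistant replicate 3 did, and miRNAs that the filter removed are not in these numbers. Ratios added 0.5 counts and used exact permutation in scipy 1.17.1. Planned for naming were the members, their cluster partners, the 2 with the lowest p of each other list, and the 3 closest patterns of 3 members. Of these, miR-5100 and miR-1291 (fragment-like) and miR-1-3p (other tissues) were left out above. Further miRNAs of the lists, and miR-92a-3p, were named outside this plan. Alternatives were RLE factors, library totals, no filter, a mean of at least 10 CPM, DESeq2 1.42.0, a replicate block, a correction for GC content (sequences for 88.2% of tested miRNAs), and leaving out each library.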

Additional observations from a re-analysis of the deposited data

How the results depend on the processing

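miR-99a-5p and miR-125b-5p passed in all 14 alternatives run (log2 fold changes -4.54 to -4.25 and -4.20 to -3.87, adjusted p at most 0.049). Members called lower, 2 with all libraries, were 4 without a filter and 4 with DESeq2, and 2 to 4 when each library was left out; the 4 came without resistant replicate 3. miR-125b-2-3p passed in 4 of 13 alternatives and miR-100-5p in 3 of 13. Of all miRNAs, those called higher numbered 9 with RLE factors, 27 with library totals, 115 without a filter, 7 at a mean of at least 10 CPM, 98 with DESeq2 and 38 with the GC correction, and 1 to 113 when each library was left out. Those called lower numbered 47 without a filter, 6 at a mean of at least 10 CPM, 51 with DESeq2, 33 with the GC correction, and 3 to 118 when each library was left out. Among the fits that left out 1 library, the highest counts came without resistant replicate 3. The cause of these shifts was not tested.

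Correlations of deviations from the group means were -0.08, 0.29 and 0.15 for libraries of the same replicate number. For those of different numbers they ranged from -0.27 to 0.24. Resistant replicate 3 weighs on the resistant mean, so these values cannot decide whether replicate numbers pair the libraries. With the replicate block, 8 miRNAs were higher and 15 lower, with the same 2 members lower. Reversed fold changes, none of them past the threshold, were those of miR-99b-5p with the GC correction (-0.61, and -0.72 with the block), of miR-99b-3p (-0.019 and -0.026) and of miR-125a-5p (-0.047 and -0.15). miR-125a-5p also turned to -0.065 without a filter, -0.093 with the block and -0.45 without resistant replicate 3, and ranged from -0.45 to 0.46 when each library was left out. The fold change of miR-125a-3p kept its sign, at 0.27 with the GC correction and 0.14 with the block added. Depth limits the passenger arms on chromosomes 21 and 11, at 0 to 5 counts in resistant libraries, and miR-100-5p, at 0 to 13 counts. It also limits miR-125b-5p, at 5 to 25 counts in those libraries.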
